A study of Mus musculus with 25 samples.

Results

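Cadherins and protocadherins were examined in 25 single cells picked by hand from the mouse arcuate nucleus and median eminence, the lowest part of the hypothalamus. Members were chosen by gene name, as the numbered Cdh genes, the numbered Pcdh genes and the Pcdha, Pcdhb and Pcdhg genes of the protocadherin clusters. The rule found 58 of 30903 gene symbols, of which 23 were cadherins (Cdh), 12 non-clustered protocadherins and 23 clustered protocadherins. The donors were male adults, 63 days old on average, of the strain (C57BL/6 x DBA)F2, and they carried RIP-Cre, a Cre transgene under a rat insulin promoter. The picked cells had green fluorescent protein (GFP) from an adeno-associated virus that expresses it after Cre has removed a stop sequence, so only cells that the virus entered and in which Cre acted could be picked. Tissue of 2 mice was pooled and the labels do not say which mouse a cell came from. The 25 cells are therefore 1 group and 1 sample, with no comparison between groups and no p-value. Cells are called by the numbers in their labels.

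Cadherins are membrane proteins whose extracellular repeats bind calcium and hold cells together. Classical cadherins bind mainly their own kind on the neighbouring cell and are tied to actin through catenins, and neurons use them in sorting, in axon growth and at synapses. Type II cadherins are often restricted to particular nuclei and layers of the brain. The non-clustered δ-protocadherins adhere more weakly and signal through other cytoplasmic partners. Clustered protocadherins lie side by side in the alpha, beta and gamma arrays on mouse chromosome 18, where each neuron switches on a few promoters by chance, which gives it a surface identity and lets its branches avoid each other.

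Detection of a gene here means 10 RPKM or more in a cell, where RPKM corrects read numbers for the length of the gene and the depth of the cell. The estimated depth was 832526 to 2905220 reads per cell (median 1737260), and 3843 to 6183 genes were detected per cell (median 4896). Intervals given with a share of cells are exact Clopper-Pearson intervals at the 95% level, cover only counting error and treat cells as independent draws. For a gene detected in 0 of 25 cells the upper bound of that interval is 13.7%, and the rule of 3 counts in 25 gives 12%. Each of 10 neuronal markers was detected in 18 to 25 cells. Of 37 markers of glia, tanycytes, vessels, fibroblasts and pars tuberalis, 10 were detected in at least 1 cell, and their summed level per cell ran from 0.13 to 102.6 RPKM. Mog, Mobp, Gfap, C1qa, Cldn5, Dcn and Tshb were listed at 0 in all cells. The part of RNA from such other cells in the members' values was not tested.

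At 10 RPKM, most members outside the clusters were detected in at least 1 cell. Of the 35 cadherins and non-clustered protocadherins, 24 (68.6%) were detected in at least 1 cell, against 42.7% of all symbols. In 13 or more cells 4 of the 35 were detected, which is near the share among all symbols of 13.5%. The 4 were Pcdh9, Pcdh17, Cdh13 and Cdh2. This count follows the level, since Pcdh9 alone was in 13 or more cells at 20 RPKM (10.6% of all symbols), while 7 members were at 5 RPKM (15.7%) and 9 at 1 RPKM (19.2%). With every cell rescaled to the same sum of RPKM, 7 members were in 13 or more cells (16.4% of all symbols). Pcdh7, Cdh4 and Pcdh19 joined, which gave the same 7 as at 5 RPKM, and no detected member lost cells. The rescaled count therefore cannot separate equal sums from a lower level. Without the 6 cells lowest in the nuclear RNA Malat1, 7 members were in more than 9 of the remaining 19 (13.6% of all symbols). Here Pcdh7, Pcdh19 and Cdh22 joined. The median detected member was found in 7 cells, the same number as for all detected symbols. A cell held 1 (cell 1) to 13 members (cells 24 and 32), with a median of 7.

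**Figure D1:**
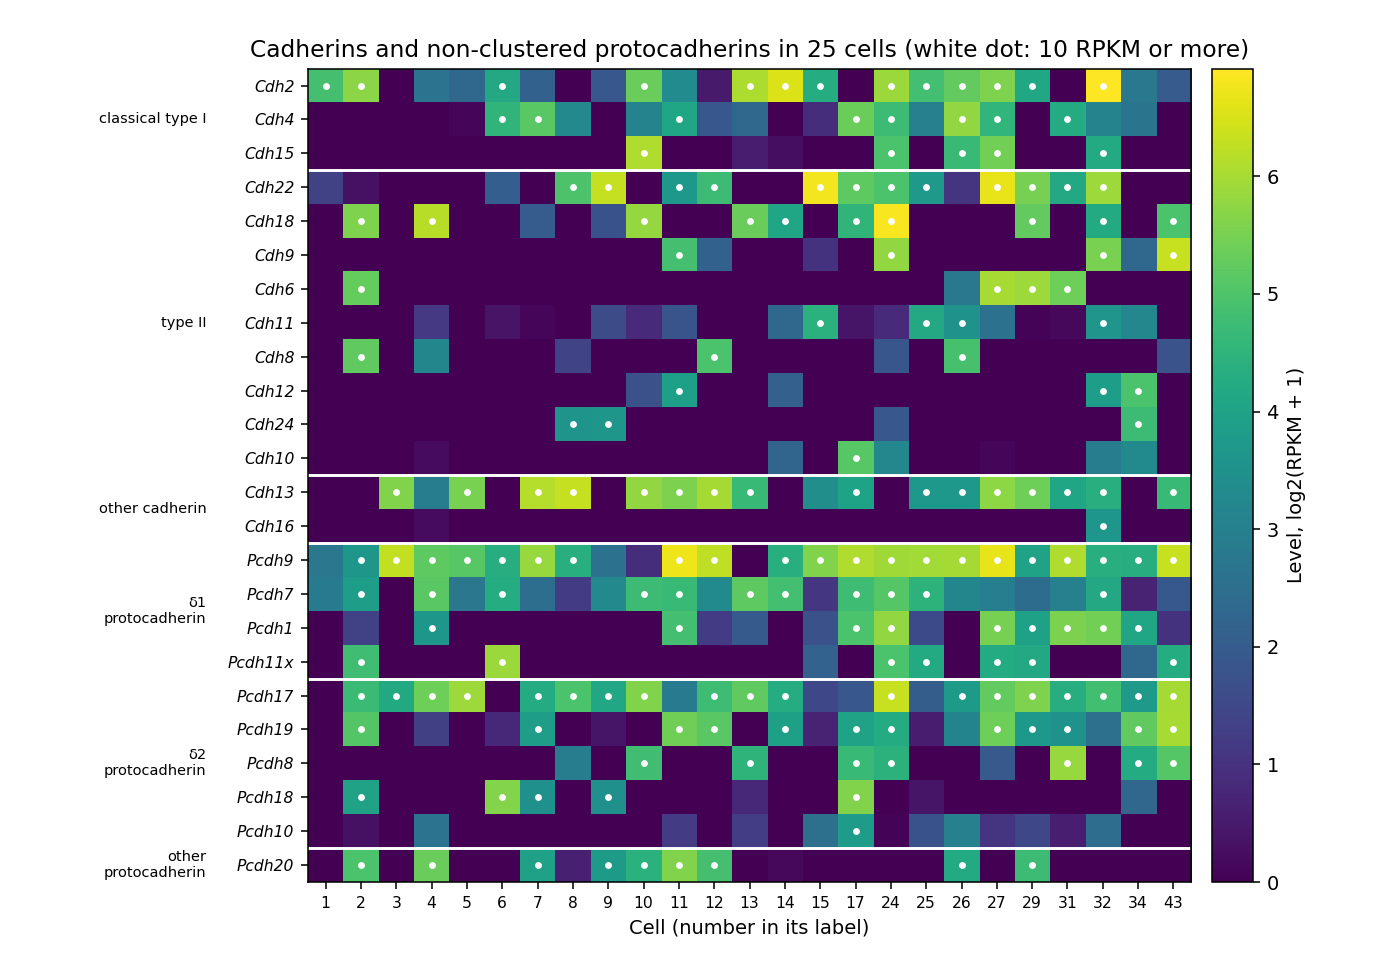
Level of the 24 detected cadherins and non-clustered protocadherins (rows, by subfamily) in each of the 25 cells (columns), as log2(RPKM + 1); a white dot marks 10 RPKM or more. Pcdh9 and Pcdh17 are lit in most columns, whereas most type II cadherins are lit in 4 cells or fewer, and cell 1 has a single dot, for Cdh2.

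Among classical type I cadherins, Cdh2, which encodes the N-cadherin of neurons, was the most frequent. Its level ran from 0 to 119.7 RPKM in cell 32 with a median of 16.5 RPKM, and it was detected in 13 of 25 cells (52%, interval 31.3 to 72.2%). Another 8 cells had Cdh2 below 10 RPKM, so the gene was listed at 0 in 4 cells. Cdh4, which encodes retinal cadherin, ranged from 0 to 54.8 RPKM in cell 26 with a median of 5.28 RPKM. It was detected in 8 cells (32%, interval 14.9 to 53.5%) and lay between 0 and 10 RPKM in 9 others, a graded distribution like that of Cdh2. Cdh15, known as the muscle cadherin, was detected in 5 cells, with 67.6 RPKM in cell 10, 42.1 in cell 27, 30.1 in cell 24, 24.8 in cell 26 and 17.9 in cell 32. All 5 were also Cdh2 cells, which is 100% of the Cdh15 cells and 38.5% of the 13 Cdh2 cells. Outside these 5 cells, Cdh15 was at 0.45 RPKM in cell 13, 0.19 in cell 14 and 0 in the rest. The epithelial cadherin gene Cdh1 and the placental cadherin gene Cdh3 were listed at 0 in all 25 cells. In total 17 cells had at least 1 type I cadherin, and cells 24, 26 and 27 had all of Cdh2, Cdh4 and Cdh15.

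Type II cadherins were the largest cadherin subfamily, and at 10 RPKM each was detected in fewer than 13 cells. Of 13 genes 9 were detected (69.2%, against 42.7% of all symbols), none in more than 12 cells. Among all symbols 13.5% were in 13 or more cells, so few of 13 genes would be at that share. A cell held 0 to 5 type II cadherins (median 2). Cdh22 led, with a range from 0 to 109.6 RPKM in cell 15 and a median of 3.20 RPKM, and it was detected in 12 cells (48%, interval 27.8 to 68.7%). The next highest Cdh22 values were 102.6 RPKM in cell 27 and 78.5 RPKM in cell 9. At 1 RPKM Cdh22 was in 15 cells, and with at least 10 estimated reads in 13. Cdh18 reached 114.9 RPKM in cell 24 and was detected in 10 cells (40%, interval 21.1 to 61.3%). Its median was 0, because 13 cells had no value for it, and only cells 7 and 9 had values in between, of 3.01 and 2.37 RPKM. The 10 detected cells had at least 15.8 RPKM, so no cell lay between 3.01 and 15.8 RPKM.

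The remaining detected type II cadherins were each found in 1 to 4 cells. Cdh9 was detected in 4 cells, at 80.3 RPKM in cell 43, 54.4 in cell 24, 45.0 in cell 32 and 28.25 in cell 11. Cdh6 was detected in a different 4 cells, at 63.9 RPKM in cell 27, 58.95 in cell 29, 41.2 in cell 31 and 37.9 in cell 2. No cell had both Cdh6 and Cdh9. Each gene was found in only 4 cells, so few or no shared cells would be usual for unrelated genes. Whether Cdh6 and Cdh9 avoid each other was not tested. Cdh11, known from bone-forming and mesenchymal cells as well as neurons, was detected in 4 cells at 10.6 to 20.4 RPKM but was listed above 0 in 17, more cells than for any other type II cadherin. Cdh8 was detected at 36.1 RPKM in cell 2, 30.3 in cell 12 and 29.2 in cell 26. Cdh12 was detected at 30.04 RPKM in cell 34, 14.05 in cell 11 and 13.3 in cell 32. Cdh24 was detected at 25.6 RPKM in cell 34, 11.6 in cell 9 and 10.9 in cell 8. Cdh10 reached 33.45 RPKM in cell 17 and stayed at 8.98 RPKM or less elsewhere. Cdh7 did not exceed 0.12 RPKM, and Cdh19 and Cdh20 were listed at 0 throughout. Cdh5, which encodes the cadherin of vascular endothelium, was also at 0 in all cells.

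The genome groups many type II cadherins side by side (positions are GRCm38 from GENCODE M21). Cdh6, Cdh9, Cdh10, Cdh12 and Cdh18 lie on chromosome 15 between positions 13028701 and 23474418. All 5 were detected, in 14 cells together, and 7 cells had at least 2 of them. Cell 32 held Cdh9, Cdh12 and Cdh18, and cell 24 held Cdh9 and Cdh18. On chromosome 1, Cdh20, Cdh7 and Cdh19 lie between positions 104768529 and 110977584, and none of the 3 was detected. Chromosome 8 holds 8 cadherins of several subfamilies, of which Cdh8, Cdh11, Cdh13, Cdh15 and Cdh16 were detected. Of all symbols 42.7% were detected in at least 1 cell, and these groups hold only 3 to 8 genes each.

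Of the other cadherins, Cdh13 was the most frequent Cdh gene of all. It encodes T-cadherin, which lacks the transmembrane and cytoplasmic parts and is held by a lipid anchor, and which also binds adiponectin. Cdh13 ranged from 0 to 78.0 RPKM in cell 8 with a median of 15.8 RPKM, and it was detected in 16 of 25 cells (64%, interval 42.5 to 82.0%). Cells 7, 12, 10 and 27 followed with 70.0, 62.75, 54.3 and 52.6 RPKM, and 7 cells were listed at 0. Cdh13 was the highest Cdh gene in 6 cells and Cdh2 in another 6. In cells 3 and 5, Cdh13 was the only cadherin detected, at 47.5 and 45.0 RPKM. The kidney-associated Cdh16 reached 11.5 RPKM in cell 32. The intestinal Cdh17 stayed at 4.24 RPKM or less and Cdh23, a component of hair cell tip links, at 4.65 RPKM or less, while Cdh26 was at 0. Pcdh15, the tip link partner of Cdh23, had 8.18 RPKM in cell 4 and 0 elsewhere.

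**Figure D2:**
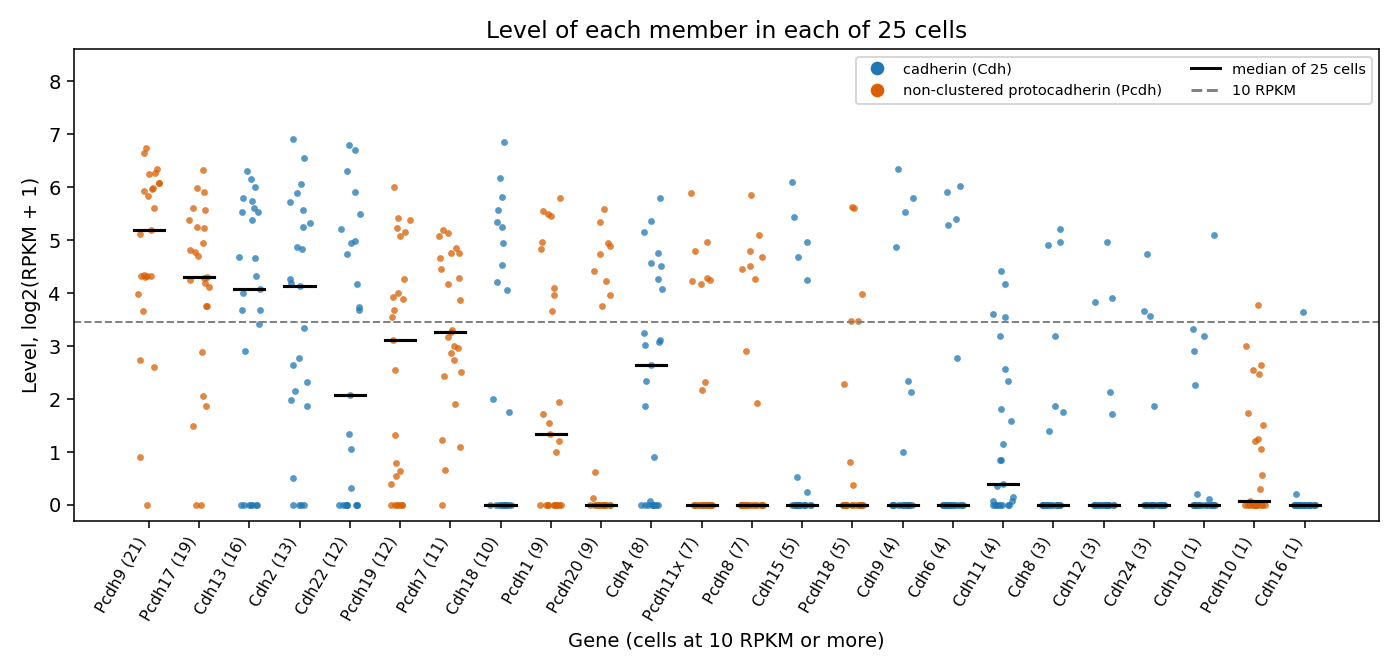
Level of each detected cadherin (blue) and non-clustered protocadherin (orange) in each of the 25 cells, as log2(RPKM + 1), with the median over cells as a black bar and 10 RPKM as a dashed line. Genes run from Pcdh9 (21 cells at 10 RPKM or more) to Cdh16 (1 cell); Cdh18 shows a gap between its 10 detected cells and the cells at or near 0, while Pcdh7 and Cdh11 fill the low range.

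All 9 δ-protocadherins were detected in at least 1 cell, against 42.7% of all symbols. A cell held 0 to 7 of the 9, with a median of 4. Only cell 1 had none, and cells 17 and 24 had 7 each. Within the δ1 subfamily, Pcdh9 was the most frequent member of all, detected in 21 of 25 cells (84%, interval 63.9 to 95.5%). Its level ran from 0 in cell 13 to 105.4 RPKM in cell 11, with a median of 35.8 RPKM, and cells 27, 43, 3 and 12 had 99.3, 79.8, 76.1 and 75.5 RPKM. Pcdh9 was the highest non-clustered protocadherin in 11 cells. Pcdh7 was listed above 0 in 24 cells, as many as Pcdh9. It was detected in 11 of them (44%, interval 24.4 to 65.1%), and its highest value was 35.45 RPKM in cell 13, with a median of 8.57 RPKM that lies just under the level. Pcdh1 was detected in 9 cells (36%, interval 17.97 to 57.5%) and peaked at 54.8 RPKM in cell 24, 45.9 in cell 31, 44.1 in cell 27 and 42.8 in cell 32. The X-linked Pcdh11x was detected in 7 cells (28%, interval 12.1 to 49.4%), with 58.1 RPKM in cell 6 and 17.0 to 30.2 RPKM in the other 6 cells.

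Within the δ2 subfamily, Pcdh17 was detected in 19 cells (76%, interval 54.9 to 90.6%). It ranged from 0 in cells 1 and 6 to 79.5 RPKM in cell 24, with a median of 18.8 RPKM, and it was the highest non-clustered protocadherin in 8 cells. Pcdh19, an X-linked gene whose human counterpart is mutated in an epilepsy that affects mainly females, was detected in 12 cells (48%, interval 27.8 to 68.7%). Its highest values were 63.6 RPKM in cell 43, 41.5 in cell 11, 40.9 in cell 27 and 36.7 in cell 34, and its median was 7.71 RPKM. Pcdh8, known in rodents as an activity-regulated protocadherin, was detected in 7 cells at 18.15 to 56.8 RPKM, with the highest value in cell 31. Pcdh18 was detected in 5 cells, at 48.3 RPKM in cell 6, 47.9 in cell 17, 14.85 in cell 2, 10.08 in cell 7 and 10.05 in cell 9. The values of cells 7 and 9 lie at the very edge of the level. Pcdh10 was listed above 0 in 13 cells but detected in cell 17 alone, at 12.8 RPKM. Pcdh20, which belongs to neither δ subfamily, was detected in 9 cells and peaked at 47.3 RPKM in cell 11, and Pcdh12, known from endothelium, was listed at 0 in every cell.

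Nearly every cell had its own combination. The 35 cadherins and non-clustered protocadherins gave 24 different sets of detected genes over 25 cells. The one repeated set was that of cells 3 and 5, which had Cdh13, Pcdh9 and Pcdh17. For cadherins alone there were also 24 sets. For the 12 non-clustered protocadherins there were 21 sets over the 24 cells that had any, and the repeated ones were Pcdh9 with Pcdh17 in cells 3, 5 and 8 and a set of 5 genes in cells 31 and 34. Of 300 pairs of cells, 288 (96%) shared at least 1 detected gene among the 35, and the median pair shared 3. A gene detected in most cells is shared by many pairs, so these counts follow in part from Pcdh9, Pcdh17 and Cdh13. Sets drawn from 24 detected genes can take many forms, so the rarity of repeats says little about these genes. Other gene lists of the same size were not compared.

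Which members went together was described over the 14 genes detected in 5 to 20 cells, which give 91 pairs. Pearson correlations of log2(RPKM + 1) over the 25 cells ran from -0.41 (Pcdh17 with Pcdh18) to 0.53 (Cdh2 with Cdh15), with a median of 0.09, and 65 pairs were positive. The cells share library preparation and differ in depth and in the number of detected genes, so these values are descriptions with no p. Cdh18 and Pcdh7 had r = 0.52 (Spearman rho = 0.53) and shared 8 cells, which is 80% of the 10 Cdh18 cells and 72.7% of the 11 Pcdh7 cells. Cdh18 and Pcdh17 had r = 0.50 (rho = 0.56) and shared 9 cells, which is 90% of the Cdh18 cells and 47.4% of the Pcdh17 cells. Pcdh1 shared 7 cells with Pcdh19 (r = 0.50, rho = 0.52) and 7 with Cdh22 (r = 0.48, rho = 0.43). Cdh2 and Cdh13, the leading cadherins, had r = -0.35 (rho = -0.35) and shared 7 cells, which is 43.75% of the 16 Cdh13 cells and 53.8% of the 13 Cdh2 cells.

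Promoter windows of Cdh18, Pcdh7 and Pcdh17 are shown because Pcdh7 and Pcdh17 were each detected in most Cdh18 cells. Other frequent members, such as Pcdh9 and Cdh2, were also detected in most Cdh18 cells and are not shown. The windows, and the CCAAT box marked in them, were picked after the values and the sequences had been seen. Each is 300 bases, from 250 bases before to 50 bases after a RefSeq transcript start (GRCm38.p6), written 5′ to 3′ on the strand of the gene, and capitals mark the CCAAT box on either strand (CCAAT or ATTGG). Cdh18 is at chr15:23036213-23036512, Pcdh7 at chr5:57717831-57718130 and Pcdh17 at chr14:84443313-84443612, all on the plus strand. The Cdh18 window surrounds an internal start, 487441 bases downstream of the first base of the gene in GENCODE M21, whereas the starts used for Pcdh7 and Pcdh17 lie 114 and 0 bases from theirs.
Cdh18: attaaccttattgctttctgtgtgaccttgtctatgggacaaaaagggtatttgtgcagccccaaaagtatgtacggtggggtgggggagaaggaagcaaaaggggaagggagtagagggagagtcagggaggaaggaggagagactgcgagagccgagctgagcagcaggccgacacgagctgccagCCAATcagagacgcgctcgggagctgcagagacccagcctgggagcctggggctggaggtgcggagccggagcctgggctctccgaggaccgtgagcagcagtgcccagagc
Pcdh7: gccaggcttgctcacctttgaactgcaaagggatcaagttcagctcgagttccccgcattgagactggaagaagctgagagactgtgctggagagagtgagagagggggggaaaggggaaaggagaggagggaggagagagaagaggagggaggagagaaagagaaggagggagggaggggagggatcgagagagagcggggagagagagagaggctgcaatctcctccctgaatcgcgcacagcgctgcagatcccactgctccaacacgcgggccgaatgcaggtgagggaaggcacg
Pcdh17: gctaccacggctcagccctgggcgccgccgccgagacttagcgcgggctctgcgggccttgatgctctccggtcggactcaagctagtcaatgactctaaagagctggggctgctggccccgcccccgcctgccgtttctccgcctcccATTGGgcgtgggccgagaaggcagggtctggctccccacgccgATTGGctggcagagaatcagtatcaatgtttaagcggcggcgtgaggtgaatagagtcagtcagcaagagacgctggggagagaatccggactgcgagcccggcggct
Pcdh17 has 2 CCAAT boxes, Cdh18 has 1 and Pcdh7 has none in this window. RefSeq promoters were at hand for 22 of the 58 members, with 25 starts. All 22 are cadherins or non-clustered protocadherins, so no promoter of a clustered protocadherin was searched. Cdh2, Cdh4, Cdh13 and Pcdh1 had none at hand either. Of the 25 starts, 17 (68%) held a CCAAT box, against 37.4% of all 32851 promoters of the same length. The TATAAA box, searched on both strands (TATAAA or TTTATA), was in 2 of the 25 (8%) and in 13.6% of all. A core like that of CTCF sites (CC, any 3 bases, AG, any 2 bases and GGC, on both strands), searched before the CCAAT box, was in 2 of the 25 (8%), those of Cdh7 and Pcdh15, and in 8.61% of all. CpG dinucleotides numbered 2 (Cdh10) to 38 (Cdh22) per promoter with a median of 14, against a median of 7 over all promoters. The 3 promoters shown have 26 (Pcdh17), 12 (Cdh18) and 11 (Pcdh7). These are matches of letters, and no binding was measured.

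Clustered protocadherins are described apart. The 23 rows comprise 21 beta genes and 1 row each named Pcdha6 and Pcdhga12. In the GENCODE M21 annotation the alpha locus has 13 symbols and the gamma locus 22, whose transcripts share their last exons. The similarly built Ugt1a locus, with 9 symbols in GENCODE, also appeared under 1 symbol. Whether the Pcdha6 and Pcdhga12 rows hold reads of those single genes or of their whole loci cannot be told from the table. Beta genes share no exons, and each has its own row except Pcdhb21, which was not analysed here.

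Each beta isoform was found in few cells, and each cell had few isoforms. Of the 21 beta genes 13 were detected in at least 1 cell (61.9%, against 42.7% of all symbols), 6 of them in a single cell and none in more than 4, while 13.5% of all symbols were in 13 or more cells. No isoform was detected in 8 cells, 1 isoform in 11 cells, 2 isoforms in 5 cells and 4 isoforms in cell 2, so that 17 cells (68%, interval 46.5 to 85.1%) had at least 1. Only 37 values of beta genes were above 0 in the 25 cells, and 25 of these 37 reached the level, at a median of 30.5 RPKM. That share, 67.6%, is near the 67.4% of values above 0 that reached the level over all symbols.

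Pcdhb9 was the most frequent and most abundant isoform, at 116.1 RPKM in cell 10, 49.6 in cell 9, 36.0 in cell 8 and 34.8 in cell 2. It had 8.41 RPKM in cell 12 and 0 in the other 20 cells. Pcdhb7 was detected at 73.3 RPKM in cell 25, 25.4 in cell 17 and 21.3 in cell 9. Pcdhb20 had 56.7 RPKM in cell 26, 23.7 in cell 12 and 12.9 in cell 2. Pcdhb8 had 30.7 RPKM in cell 8, 15.5 in cell 24 and 10.4 in cell 31. Pcdhb7, Pcdhb8 and Pcdhb9 are consecutive members of the cluster, and, picked after the values were seen, they made up 10 of the 25 detections, in 8 cells.

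Pcdhb15 was detected in cells 10 and 15 (57.15 and 30.5 RPKM), Pcdhb14 in cells 4 and 43 (41.3 and 35.7 RPKM) and Pcdhb11 in cells 2 and 1 (18.3 and 11.3 RPKM). Pcdhb17 in cell 15 (36.9 RPKM), Pcdhb16 in cell 7 (31.5 RPKM), Pcdhb19 in cell 2 (17.7 RPKM), Pcdhb4 in cell 27 (13.9 RPKM), Pcdhb22 in cell 34 (10.8 RPKM) and Pcdhb6 in cell 7 (10.25 RPKM) were each detected once. Pcdhb18 reached 8.47 RPKM in cell 25, Pcdhb13 and Pcdhb12 stayed at 0.51 RPKM or less, and Pcdhb1, Pcdhb2, Pcdhb3, Pcdhb5 and Pcdhb10 were at 0 in all cells. Among the 17 cells with any isoform there were 13 different sets, and the 4 repeated sets each consisted of 1 isoform shared by 2 cells. Of the 136 pairs of these cells, 18 (13.2%) shared an isoform, against 96% of pairs for the cadherins and non-clustered protocadherins, of which a cell held more.

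Similar sequence between beta genes could move reads from one to another. Of the 50-base stretches of each GENCODE transcript, at most 12.0% were shared with another beta gene (Pcdhb12). For the 13 detected isoforms the share was 1.5 to 9.52%. Pcdhb12 differs from the rest in that 62.9% of its stretches also occur in transcripts under another gene name, so its near absence is uncertain.

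**Figure D3:**
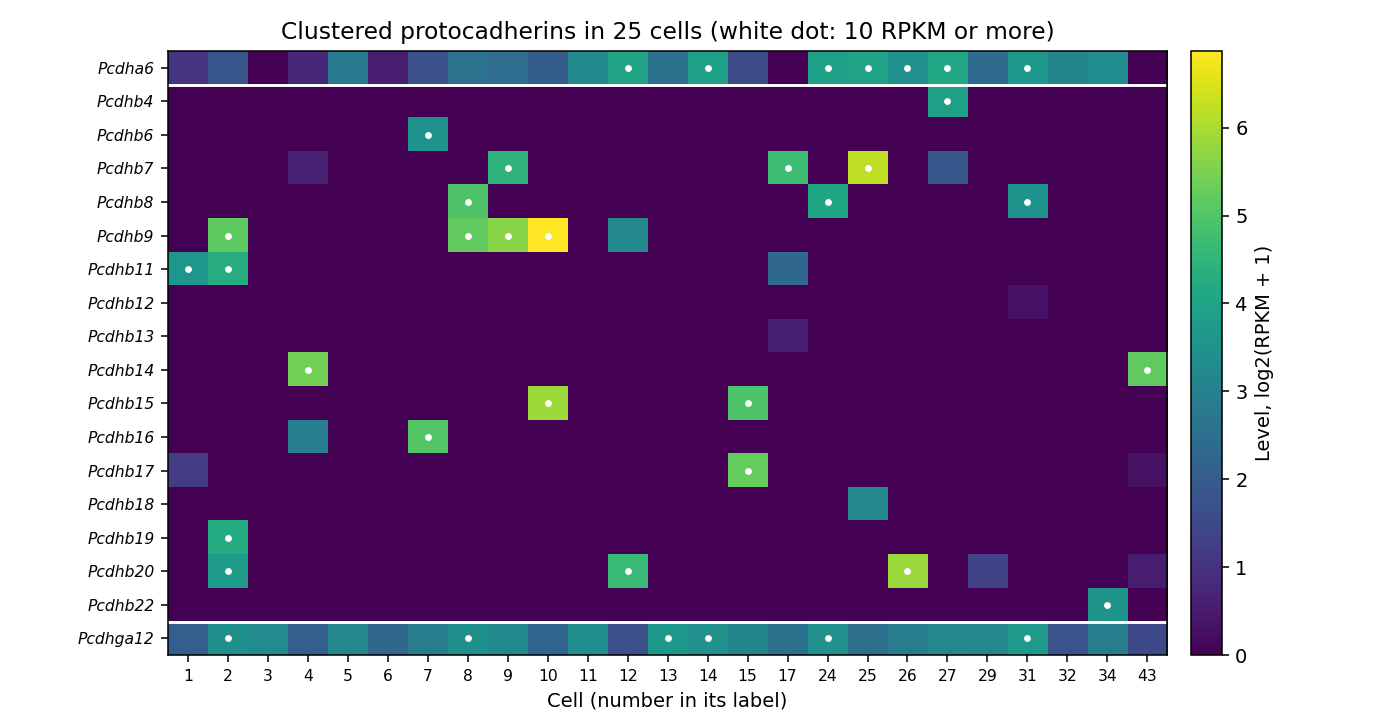
Level of the Pcdha6 row, the 16 beta genes listed above 0 in any cell and the Pcdhga12 row (rows, with the clusters set apart by white lines) in each of the 25 cells (columns), as log2(RPKM + 1); a white dot marks 10 RPKM or more. The beta genes appear as isolated spots of up to 116.1 RPKM, whereas Pcdhga12 has a low value in every column.

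The alpha and gamma rows were spread over the cells at low levels. Pcdhga12 was listed above 0 in all 25 cells, from 1.88 RPKM in cell 43 to 12.1 RPKM in cell 31 with a median of 7.91 RPKM, and 6 cells reached 10 RPKM. Pcdha6 was above 0 in 22 cells, from 0 in cells 3, 17 and 43 to 16.0 RPKM in cell 27 with a median of 4.96 RPKM, and 7 cells reached 10 RPKM. The summed level of the beta rows ran from 0 in 7 cells to 173.3 RPKM in cell 10, with a median of 16.5 RPKM. Over the 25 cells the coefficient of variation was 0.451 for Pcdhga12 and 0.854 for Pcdha6, against 1.19 for the beta sum. Because most values of Pcdhga12 and Pcdha6 fall under 10 RPKM, counts of cells with these rows depend on the level chosen. At 10 RPKM, 19 cells had at least 1 clustered protocadherin row, and 25 did at 1 RPKM.

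The cells with the fewest members, 1, 3 and 5, had 1603693, 2005532 and 2126568 estimated reads, and the shallowest, cell 9, had 5 members. The number of cadherins and non-clustered protocadherins per cell had r = 0.12 with estimated depth (Spearman rho = 0.06) and r = 0.48 with the number of all genes detected in the cell (rho = 0.54). Without cells 11 and 29, which lie farthest from the median number of genes, the second value was r = 0.41. The number of cadherins had r = 0.42 with the number of non-clustered protocadherins. Cells 1, 3 and 5, with 1, 3 and 3 members, had 4814, 4350 and 4515 genes, and all 3 belong to the 6 cells with 16.6 RPKM or less of the nuclear RNA Malat1. The other 3 of these 6, cells 6, 29 and 31, had 6, 11 and 9 members. The part of Malat1 or of detected genes in the number of members was not tested.

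**Figure D4:**
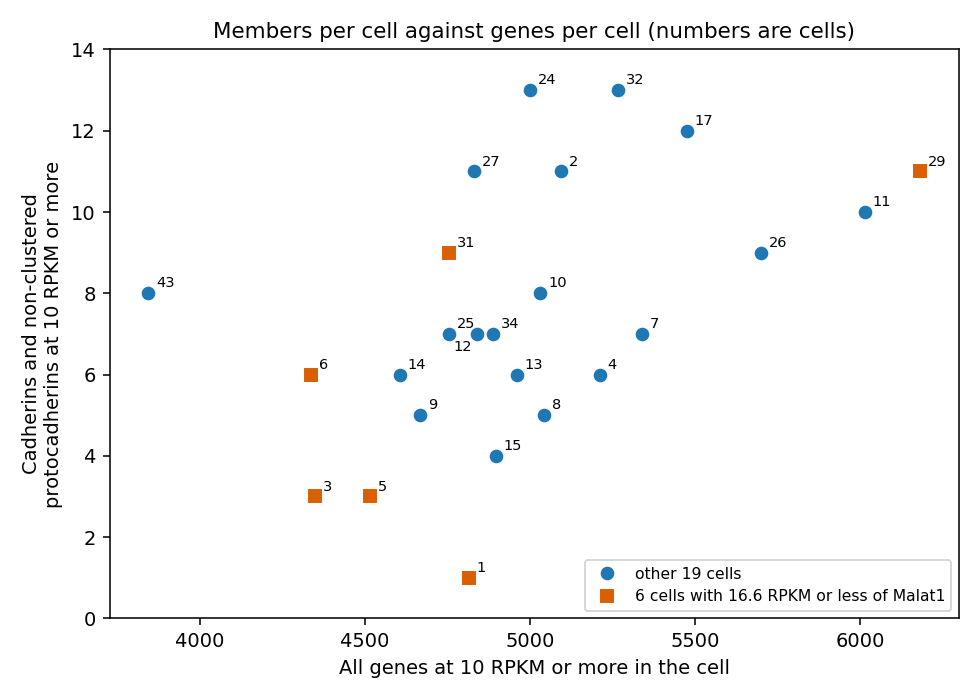
Number of cadherins and non-clustered protocadherins at 10 RPKM or more (vertical axis) against the number of all genes at 10 RPKM or more (horizontal axis), with 1 point per cell and its number; squares are the 6 cells with 16.6 RPKM or less of Malat1. Cells 24 and 32 have 13 members with 4999 and 5266 genes, and cell 1 has 1 member with 4814 genes.

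Catenins link classical cadherins to actin. Of 9 catenin and related genes 8 were detected in at least 1 cell and 3 in 13 or more, where the shares of all symbols are 42.7% and 13.5%, as for the lists that follow. Ctnnb1, encoding β-catenin, was detected in 23 cells (median 73.5 RPKM), the neuronal α-catenin gene Ctnna2 in 21 (31.2 RPKM) and the neuronal δ-catenin gene Ctnnd2 in 17 (23.8 RPKM). The broadly expressed counterparts were detected in fewer cells, with Ctnna1 in 10 cells and Ctnnd1 in 2. Pkp4 was detected in 7 cells and Ctnnal1 in 6. Jup, encoding plakoglobin, was detected in 12 cells, and Ctnna3 in none.

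Among 21 other genes of the cadherin superfamily, 10 were detected in at least 1 cell and 2 in 13 or more. The last were the calsyntenin genes Clstn3, in 24 cells (median 116.15 RPKM), and Clstn1, in 22 cells (56.2 RPKM). Clstn2 was detected in 8 cells. Of the seven-pass cadherins of planar polarity, Celsr3 was detected in 10 cells and Celsr2 in 9, but Celsr1 in none. Fat1 was detected in 2 cells and the other Fat genes in none, and of the desmosomal cadherin genes only Dsc2 was detected, in 1 cell.

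Of 13 genes for factors that shape the clustered promoters, 12 were detected, 3 of them in 13 or more cells. The cohesin subunits Smc1a and Smc3 were found in 19 cells each (medians 37.6 and 25.35 RPKM), and Ctcf, whose protein binds these promoters and loops them to enhancers, in 13 (13.5 RPKM). Rad21 followed in 11 cells. Smchd1, a silencer of clustered protocadherins in mice, was detected in 5 cells, and Dnmt3b, which methylates their promoters in the embryo, stayed at 6.57 RPKM or less. Of 16 partners and effectors of protocadherins, 15 were detected and 8 were in 13 or more cells, where the shares of all symbols are again 42.7% and 13.5%. They were led by genes of the WAVE complex, which δ-protocadherins recruit to remodel actin. Cyfip2 was detected in 24 cells (median 50.5 RPKM), Wasf1 in 20 (46.5 RPKM), Abi1 in 17 (20.9 RPKM) and Nckap1 in 15 (25.1 RPKM), whereas Cyfip1 reached the level in none. These lists say how often the partners were seen and not whether they meet the members in a cell.

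Set beside genes that mark types of arcuate neuron, members crossed the types. The GABA synthesis gene Gad1 was detected in 23 cells, among them all 10 Cdh18 cells and all 11 Pcdh7 cells. All 10 cells with Pomc, which encodes the melanocortin precursor, had Pcdh17, and they make up 52.6% of the 19 Pcdh17 cells. Cdh18 shared 6 cells with Pomc, 6 with Cartpt and 6 with Glp1r, which is 60% of the 10 cells of each of these genes. However, Cdh18 was in none of the 7 Lhx1 cells, none of the 5 Sst cells and 1 of the 8 Th cells. This was not particular to Cdh18. Pcdh8 and Pcdh11x (7 cells each), Pcdh18 (5 cells) and Cdh6 (4 cells) were also in none of the Lhx1 cells. Pcdh7 was likewise in 1 of the 8 Th cells. Cdh13 was in 6 of the 7 Lhx1 cells, and in 16 of all 25 cells. Pcdh18 was detected in 5 cells, of which 4 had Cartpt (40% of the 10 Cartpt cells). All 3 Cdh12 cells were among the 10 with Glp1r, the receptor gene for glucagon-like peptide. Cells 7 and 27, the pair with the glutamate transporter gene Slc17a6 at the level, both had Cdh4, Cdh13, Pcdh9, Pcdh17 and Pcdh19. Cell 7 was also the only cell with Fezf1 (85.4 RPKM) and cell 27 the only one with Nr5a1 (96.6 RPKM), genes known from the neighbouring ventromedial nucleus. These pairings were picked after the values were seen and carry no test.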

How the data were processed

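The deposited table gives, per the labels, 25 cells picked singly and prepared with Smart-Seq2 and Nextera XT, which use no molecular identifiers and mark no strand. Its values are RPKM by their form, made by the authors, although the table is named for counts. The submitters' processing notes list featureCounts (1.4.6), TopHat2 (2.0.14), SAMtools (0.1.19), Picard (2.5.0) and bcl2fastq, with GRCm38 and mm10 as builds. The sources used here do not give their roles or the gene annotation.

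Of 33082 rows, 26 with date numbers for names were dropped, and for 755 repeated symbols (among members, Cdh10) only the row of highest sum entered. GENCODE M21 supplied exon lengths and gene positions. Depth was estimated per cell as the read total at which low values times exon length fall nearest to 1, 2 and 3 reads. On simulated data for 22754 genes at 5 depths the error was at most 0.0903%; with genes of 1 transcript only, the estimates moved by -5.71 to 11.3%. Values times exon length summed to 1.38 to 1.47 times what matching lengths would give, so read numbers are approximate. At the median depth 10 RPKM equals 53.1 reads for Pcdhb9, 118 for Pcdh9 and 226 for Pcdh17.

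No 2 cells were identical (highest r between cells 0.757). All detected members were named, as were up to 4 frequent genes per companion list and others picked by eye from the values. The tolerance of 0.2 for correlations and the groups by position were chosen after seeing the data. Members and lists were chosen with earlier results of these data known. Alternatives were levels of 1, 5 and 20 RPKM, at least 10 reads, rescaled cells, summed rows, left-out cells and a pseudocount of 0.1. Python 3.11.15, pandas 2.3.3 and SciPy 1.17.1 were used.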

Additional observations from a re-analysis of the deposited data

How the results depend on the processing

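No paired analysis was possible because the labels give 1 group. The number of detected cadherins was 13 to 16 of 23 and that of non-clustered protocadherins 9 to 11 of 12 under all 8 alternatives. At 10 RPKM 42.7% of all symbols were detected in at least 1 cell, and that share is not given for the alternatives. The median of 7 cadherins and non-clustered protocadherins per cell became 11 at 1 RPKM and 12 with at least 10 estimated reads. The 19 cells with a clustered protocadherin became 25 at 1 RPKM and with at least 10 reads, 24 at 5 RPKM and with every cell rescaled to the same sum of RPKM, and 12 at 20 RPKM, where detected clustered members fell to 8, against 15 at 10 RPKM, and their median per cell to 0, against 2. The Pcdha6 and Pcdhga12 rows reached 20 RPKM in no cell, so the counts at 20 RPKM are of beta genes alone. Other alternatives left out the 6 cells low in Malat1, left out the shallowest cell (cell 9) or summed repeated rows. These moved none of the 6 summary results by more than 1.5 times or outside its interval. Without the low Malat1 cells, however, 7 of the 35 cadherins and non-clustered protocadherins were in more than 9 of the 19. Over all cells 4 of the 35 were in 13 or more of the 25. The shares of all symbols were 13.6% without the low Malat1 cells and 13.5% over all cells. With at least 10 reads, 9 of the 35 were in 13 or more of the 25 cells, as were 18.1% of all symbols. Among the 35 cadherins and non-clustered protocadherins, 11 values lay from 8 to under 10 RPKM and 14 from 10 to under 12 RPKM. The cell counts of Pcdh7 (11 cells) and Cdh4 (8 cells) became 20 and 14 with cells rescaled. At 5 RPKM without rescaling they were 18 and 13. No correlation between members changed by 0.2 or more with the pseudocount of 0.1.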

Other observations

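Members whose transcripts overlap other genes were few. Pcdh7 shared 21.1% of its exon bases with 4932441J04Rik on the opposite strand, which did not exceed 0.13 RPKM in any cell. Pcdh8 shared 9.61% with Gm9748 and Cdh9 6.33% with Gm49127, neither of which was analysed here, and without strand their reads cannot be told apart.

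By summed level, cell 27 stood highest for cadherins (335 RPKM) and cell 24 for non-clustered protocadherins (296 RPKM), while cell 1 was lowest for both (29.96 and 11.95 RPKM). Cell 32 carried the most cadherins, 9, and had no beta isoform, with all beta rows at 0. Cell 2 carried 11 of the 35 cadherins and non-clustered protocadherins and the most beta isoforms, 4 (Pcdhb9, Pcdhb11, Pcdhb19 and Pcdhb20). The number of beta isoforms per cell had r = -0.07 with estimated depth over the 25 cells.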
